A study of Rattus norvegicus with 18 samples.

Results

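The genes described here are 10 core members of the Bcl2 family, the genes that set whether a cell dies through its mitochondria: the survival genes Bcl2, Bcl2l1 and Mcl1, the pore-forming effectors Bax and Bak1, and the BH3-only death sensors Bcl2l11, Bbc3, Pmaip1, Bid and Bad. They were taken by gene symbol from a table of 32545 lines. Values were found for 8 of the 10, each on 1 line, while Mcl1 and Bbc3 are not analysed here. The 18 libraries of messenger RNA came from rats of strain Crlj:WI and genotype Prdm14-Venus, a fluorescent reporter of a germ line regulator that all groups carry. Of these, 12 libraries came from primordial germ cells (PGC), which later give sperm or eggs: 2 libraries for each of embryonic day (E) 9.5, 10.5, 11.5 and 12.5, whose sex was not labelled, and 2 female and 2 male libraries at E15.5. The other 6 came from epiblast, the pluripotent layer from which the embryo and its germ line arise, with 3 libraries at E7.25 and 3 at E7.75, each day with 1 female and 2 male libraries. Whether a library pools embryos, and how the cells were isolated, is not given in the sources used here. The spread behind the p-values below is thus that among libraries, and it may be technical.

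In cells under stress, BAX and BAK, the proteins of Bax and Bak1, open pores in the outer mitochondrial membrane, and cytochrome c then leaves the mitochondria and activates caspases. BCL2, BCL-XL (the main protein of Bcl2l1) and MCL1 bind and restrain the effectors, and the BH3-only proteins answer stress by blocking the survival proteins or by activating the effectors directly. Among these, BIM (the protein of Bcl2l11) responds to loss of growth factors, NOXA (of Pmaip1) and PUMA (of Bbc3) respond to DNA damage and other stress, BID is activated when caspase-8 cleaves it, and BAD is held inactive by survival signals through AKT. In mouse, loss of Bax spares PGC that would otherwise die, and too little Bcl2l1 depletes them.

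Values are RPKM, reads scaled by gene length and by the mapped reads of the library, so levels are given per length and can be set side by side between genes. Read depth, estimated from the low values, in E10.5 and E11.5 PGC (4 libraries) was 20.7% to 23.0% of the depth of the female library of E7.75, and it was 82.6% to 120.8% in the other 14, so low values at E10.5 and E11.5 rest on fewer reads. The 9 germ cell markers summed to 426 to 1873 RPKM in PGC and to 21.0 to 43.4 RPKM in epiblast. The E9.5 libraries stood apart, and also from each other. The 8 markers of allantois and extraembryonic mesoderm summed there to 529 and 546 RPKM, with 7 and 8 of 8 at or above 1 RPKM, against 232 to 237 RPKM at E10.5 and 4.05 to 9.09 RPKM at E7.75. The 8 mesenchyme markers summed to 171 and 174 RPKM at E9.5 with Col1a2 and Dcn at 0, and the endothelium markers to 114 RPKM in replicate 1 and 29.5 RPKM in replicate 2, where Cldn5, Cdh5 and Tie1 were at 0. Dppa3, a germ cell gene, had 0.106 RPKM in E9.5 replicate 1 and 31.3 RPKM in replicate 2. At E12.5, blood genes summed to 269 RPKM in replicate 1, with 2 of 8 at or above 1 RPKM, and to 1.82 RPKM in replicate 2. Most of the sum in replicate 1 came from Hbz (226 RPKM) and Hba1 (41.1 RPKM), with Hbb, Gata1 and Ptprc at 0.

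Each member had its own course through development. Bcl2l1 kept within a narrow range, Bax was the most abundant member in every library, and Bak1 was nearly lost by E15.5. Among the sensors, Bid was highest at E12.5 and Bad at E11.5, and Pmaip1 and Bcl2l11 had their lowest means at E10.5. Over the 8 groups (the sexes of E15.5 apart), the group means spanned 4.19 for Bak1, 3.42 for Pmaip1, 3.09 for Bid, 3.05 for Bcl2l11, 2.48 for Bad, 1.62 for Bax, 0.99 for Bcl2 and 0.46 for Bcl2l1, all on the log2(RPKM + 1) scale, with 1 added so that values of 0 keep a logarithm.

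**Figure D1:**
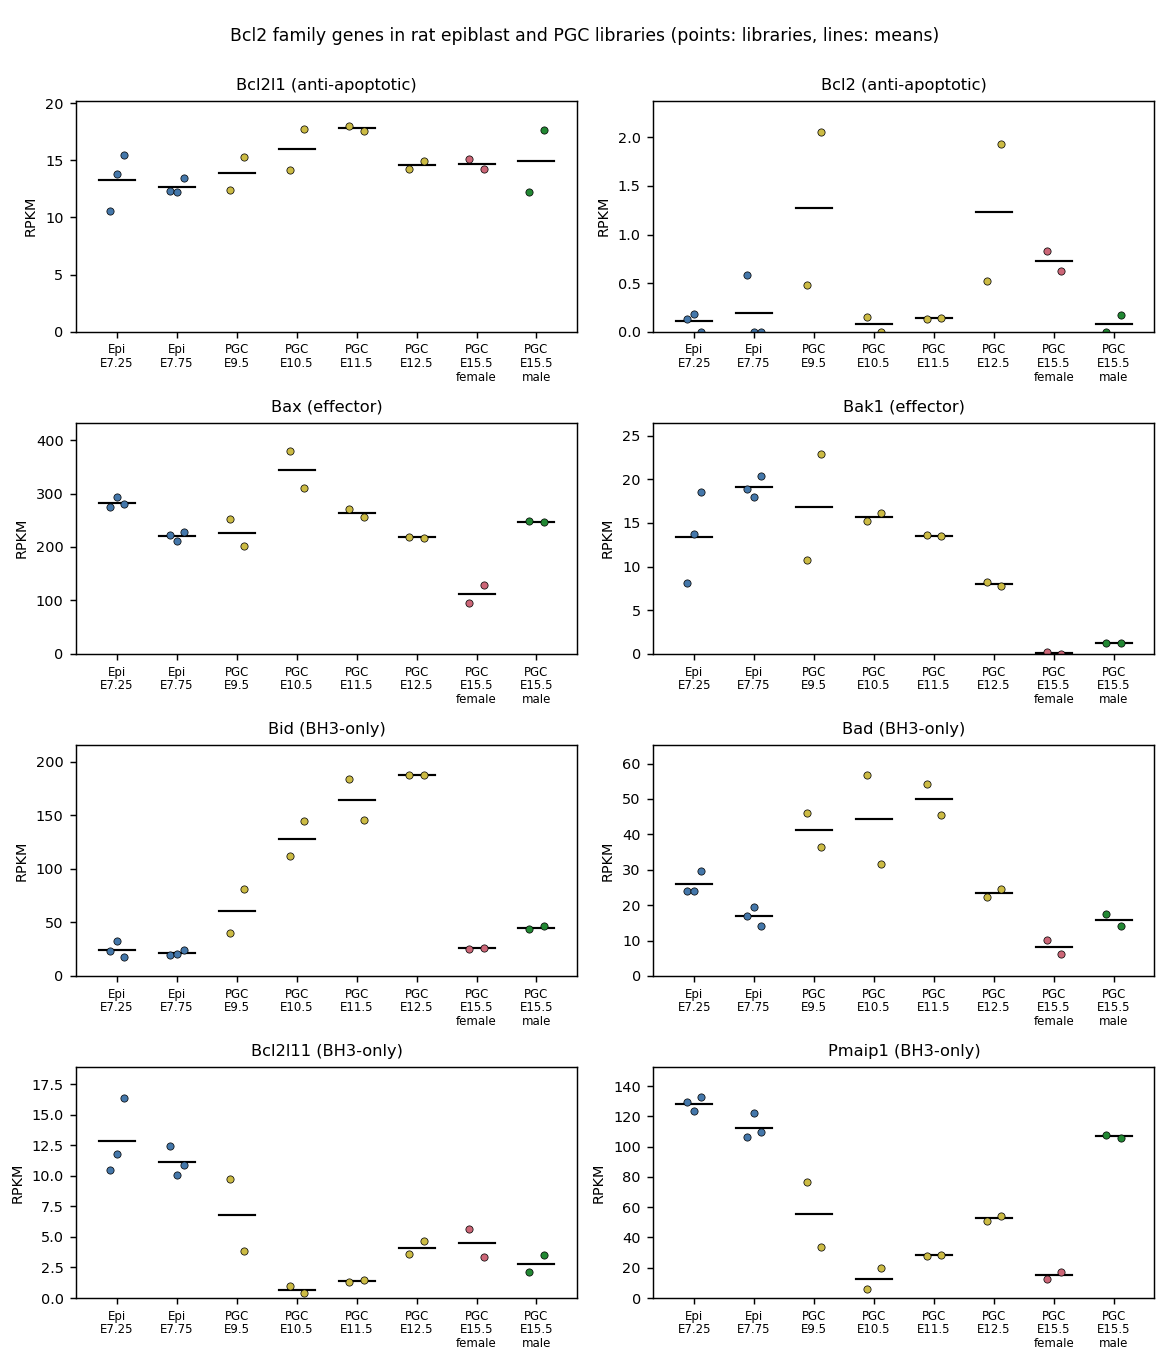
RPKM (y axis) of the 8 members in every library, with 1 panel per gene and the groups on the x axis from E7.25 epiblast to E15.5 PGC, females left of males. Points are libraries (blue epiblast, yellow PGC of unlabelled sex, red female and green male E15.5 PGC) and lines are group means. Bid is highest at E12.5 (187 and 188 RPKM), Pmaip1 and Bcl2l11 have their lowest means at E10.5, and Bak1 is at or below 1.28 RPKM in all 4 E15.5 libraries.

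Of the survival genes, Bcl2l1 (ENSRNOG00000007946) lay between 10.6 and 18.02 RPKM in all 18 libraries, and every pair of groups next to each other in the order of its means overlapped. Its highest group mean was 17.8 ± 0.33 RPKM at E11.5 (SD, n = 2) and its lowest 12.7 ± 0.65 RPKM in E7.75 epiblast (SD, n = 3). Bcl2 (ENSRNOG00000002791) was barely detected. It reached 1 RPKM in only 2 of 18 libraries, E9.5 replicate 2 with 2.06 RPKM and E12.5 replicate 2 with 1.94 RPKM, and the other replicates of these ages had 0.48 and 0.53 RPKM. It therefore entered the tests through those 2 libraries alone. In female E15.5 PGC Bcl2 had 0.83 and 0.63 RPKM, and all other libraries had at most 0.58 RPKM.

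Of the effectors, Bax (ENSRNOG00000020876) was highest at E10.5, with 379 and 309.7 RPKM, and lowest in female E15.5 PGC, with 96.0 and 129 RPKM, and neither group overlapped its neighbour in the order. Between these ends lay E7.25 epiblast (275, 293 and 281 RPKM) and E11.5 PGC (270.2 and 256 RPKM), followed by male E15.5, E9.5, E7.75 and E12.5 libraries between 201 and 253 RPKM that overlapped in turn. Bak1 (ENSRNOG00000000485), which encodes the second effector, was far lower. It had 8.08, 13.7 and 18.5 RPKM in E7.25 epiblast, 18.9, 17.98 and 20.4 RPKM in E7.75 epiblast, 10.8 and 22.9 RPKM at E9.5, 15.2 and 16.2 RPKM at E10.5, 13.6 and 13.5 RPKM at E11.5, 8.26 and 7.79 RPKM at E12.5, 0.21 and 0 RPKM in female E15.5 PGC and 1.28 and 1.19 RPKM in male E15.5 PGC. The E15.5 libraries of both sexes thus lay below all others, and females below males.

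Of the sensors, Bid (ENSRNOG00000012439) had 17.6 to 32.5 RPKM in the 6 epiblast libraries, 40.4 and 81.1 RPKM at E9.5, 112 and 144 RPKM at E10.5, 184 and 146 RPKM at E11.5, 187 and 188 RPKM at E12.5, 25.6 and 25.9 RPKM in female E15.5 PGC and 43.5 and 46.3 RPKM in male E15.5 PGC. Its libraries separated at each of the 3 places from E12.5 down to E9.5 in the order of means, and female E15.5 PGC overlapped with epiblast. Bad (ENSRNOG00000021147) had its 3 highest means at E11.5 (49.9 RPKM), E10.5 (44.3 RPKM) and E9.5 (41.2 RPKM), which overlapped, and its lowest in female E15.5 PGC with 10.2 and 6.31 RPKM, below the 17.4 and 14.1 RPKM of males.

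Bcl2l11 (ENSRNOG00000016551) and Pmaip1 (ENSRNOG00000018770) followed another course. Bcl2l11 had 10.1 to 16.4 RPKM in epiblast, 9.78 and 3.86 RPKM at E9.5, 0.94 and 0.40 RPKM at E10.5, 1.30 and 1.50 RPKM at E11.5, 3.57 and 4.64 RPKM at E12.5, 5.63 and 3.32 RPKM in female E15.5 PGC and 2.13 and 3.51 RPKM in male E15.5 PGC. Pmaip1 had 106 to 133 RPKM in epiblast, 76.7 and 33.8 RPKM at E9.5, 6.05 and 19.7 RPKM at E10.5, 28.0 and 28.4 RPKM at E11.5, 51.1 and 54.5 RPKM at E12.5, 12.9 and 16.9 RPKM in female E15.5 PGC and 108 and 106 RPKM in male E15.5 PGC. By group means both genes were thus highest in epiblast and lowest at E10.5, and for Pmaip1 male E15.5 libraries overlapped those of E7.75 epiblast while female ones overlapped those of E10.5.

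The promoters of Pmaip1 and Bcl2l11, which both fell at E10.5 against E9.5, and of Bid, which rose at that step, are shown for comparison. They run from 250 bases before to 50 bases after the annotated gene start, 5′ to 3′ on the gene's own strand, from RefSeq on build GRCr8. Capitals mark the GC box letters GGGCGG (or CCGCCC, the same on the other strand) and the core letters of a cAMP response element, TGACG (or CGTCA).
Pmaip1, chr18:62255720-62256019, plus strand: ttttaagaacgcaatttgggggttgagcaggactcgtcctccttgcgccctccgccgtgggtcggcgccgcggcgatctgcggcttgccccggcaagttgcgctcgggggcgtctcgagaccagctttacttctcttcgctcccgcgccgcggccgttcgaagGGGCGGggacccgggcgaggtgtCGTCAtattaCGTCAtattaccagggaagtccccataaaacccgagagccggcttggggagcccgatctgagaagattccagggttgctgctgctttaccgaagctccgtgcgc
Bcl2l11, chr3:135819792-135820091, plus strand: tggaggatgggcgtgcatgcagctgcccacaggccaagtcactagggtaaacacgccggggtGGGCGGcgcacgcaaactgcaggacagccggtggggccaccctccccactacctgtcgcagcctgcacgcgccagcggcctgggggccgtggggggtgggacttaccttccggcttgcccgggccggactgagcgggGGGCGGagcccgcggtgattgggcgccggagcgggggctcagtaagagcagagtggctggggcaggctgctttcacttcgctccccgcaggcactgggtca
Bid, chr4:155808270-155808569, minus strand: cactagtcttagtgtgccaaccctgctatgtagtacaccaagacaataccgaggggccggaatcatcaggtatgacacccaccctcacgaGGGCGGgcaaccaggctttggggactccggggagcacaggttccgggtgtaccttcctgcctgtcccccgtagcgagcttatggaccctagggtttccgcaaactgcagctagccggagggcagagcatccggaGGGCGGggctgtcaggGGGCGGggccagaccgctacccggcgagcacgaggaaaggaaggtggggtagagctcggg
Counting from the gene start, the GC box began at base -87 in Pmaip1, at -188 and -51 in Bcl2l11, and at -160, -26 and -10 in Bid. Pmaip1 also held CGTCA at -64 and -54, and neither of the other promoters shown held it. The E-box letters CANNTG were searched too, and were found at 1 place in Bcl2l11 and at none in Pmaip1 and Bid. The motifs marked did not overlap. Of 33365 promoter windows of the same length, 33.1% held the GC box, 21.2% held the cAMP response core and 72.1% held CANNTG. The motifs were chosen after the sequences were seen, and these matches describe letters only. Promoters were matched for 8 of the 10 members. Those of Bax and Bbc3 are not analysed here.

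PGC of all ages were set against epiblast to ask which members differ between the germ line and the tissue it comes from. Bid and Bad were higher in PGC, and Pmaip1, Bcl2l11 and Bak1 were lower. The 4 sensors with values all passed, in opposite directions. Of the survival genes, Bcl2l1 did not pass, and the test of Bcl2 carries no weight, as given below. Of 14865 genes tested, 56.3% passed in this comparison (30.7% higher and 25.6% lower), so 5 of 8 members passing is close to the background. The median change of the 8 members was 0.08 and that of all genes tested 0.08, both on the log2 scale.

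Bid, the sensor cleaved by caspase-8, had 25.6 to 188 RPKM in PGC with a median of 96.5, against 17.6 to 32.5 RPKM with a median of 21.9 in epiblast. The ranges overlapped through the female E15.5 libraries alone. Its log2 fold change, with each age weighted equally, was 2.03 ± 0.15 (SE; adjusted p = 4.5e-08, limma with Benjamini-Hochberg adjustment over all genes tested). Bad, the sensor held in check by survival signals, had 6.31 to 56.9 RPKM in PGC with a median of 28.1, against 14.2 to 29.7 RPKM with a median of 21.7 in epiblast, so the groups overlapped widely (log2 fold change 0.50 ± 0.14, limma adjusted p = 0.0076). With the shallow E10.5 and E11.5 libraries left out, its value was 0.09 (adjusted p = 0.57).

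Pmaip1, encoding NOXA, had 6.05 to 108 RPKM in PGC with a median of 31.1, against 106 to 133 RPKM with a median of 123 in epiblast. Of the PGC libraries, male replicate 1 of E15.5 alone reached the epiblast range, and the log2 fold change was -1.87 ± 0.20 (limma adjusted p = 2.2e-06). Bcl2l11, encoding BIM, had 0.40 to 9.78 RPKM in PGC with a median of 3.41, against 10.1 to 16.4 RPKM with a median of 11.4 in epiblast. The groups did not overlap, and the log2 fold change was -1.82 ± 0.20 (limma adjusted p = 3.4e-06). Bulk libraries of this kind cannot tell apart fewer cells that express a gene and less RNA of it per cell.

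Bak1 had 0 to 22.9 RPKM in PGC with a median of 9.52, against 8.08 to 20.4 RPKM with a median of 18.2 in epiblast, and its log2 fold change of -0.89 ± 0.18 (limma adjusted p = 0.00081) sits beside large overlap, since PGC from E9.5 to E11.5 lay within the epiblast range or, in E9.5 replicate 2, above it. Bax had a median of 247 RPKM in PGC and 251 RPKM in epiblast. Its log2 fold change of -0.08 had a 95% interval from -0.24 to 0.09 (limma adjusted p = 0.38). Bax passed as lower when libraries were scaled to a common upper quartile (-0.20, adjusted p = 0.042) and without E10.5 and E11.5 (-0.31, adjusted p = 0.0053). Bcl2l1 had a log2 fold change of 0.23 with a 95% interval from -0.03 to 0.49 (limma adjusted p = 0.11), and Bcl2 had 0.40 with an interval from -0.03 to 0.83 (limma adjusted p = 0.09). Bcl2 passed the filter only through E9.5 replicate 2 and E12.5 replicate 2, both PGC, so its test against epiblast carries no weight. Its log2 fold change was 0.49 to 0.51 when any 1 of 3 libraries was left out (E7.75 male replicate 1, E9.5 replicate 1 or E12.5 replicate 1). It was 0.69 without E10.5 and E11.5.

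Between the 2 epiblast days, no member passed the limma test, in a comparison where 0.269% of genes tested passed. Bax had 222, 210.3 and 227 RPKM at E7.75, against 275, 293 and 281 RPKM at E7.25, and Bad had 16.8, 19.6 and 14.2 RPKM at E7.75, against 24.1, 23.9 and 29.7 RPKM at E7.25. The libraries of the 2 days did not overlap for either gene, and how many of all genes separate this way was not counted. These were the 2 members with an unadjusted limma p under 0.05, which 1300 of the 14865 genes tested also had. The log2 fold change was -0.36 for Bax (limma adjusted p = 0.32) and -0.59 for Bad (limma adjusted p = 0.43). The other 6 members had log2 fold changes between -0.19 and 0.54.

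The first PGC, at E9.5, were then set against E7.75 epiblast, and each later age against the one before, so that neighbouring steps share libraries. At E9.5, Bid and Bad were already higher and Pmaip1 was lower, which made 3 of 8 members in a comparison where 27.6% of genes tested passed. Bid had 40.4 and 81.1 RPKM at E9.5, against 19.5, 20.1 and 24.3 RPKM at E7.75, without overlap (log2 fold change 1.39 ± 0.27, limma adjusted p = 0.0014). Bad had 46.1 and 36.4 RPKM at E9.5, against 16.8, 19.6 and 14.2 RPKM at E7.75, also without overlap (1.24 ± 0.25, limma adjusted p = 0.0022). Pmaip1 had 76.7 and 33.8 RPKM at E9.5, against 106, 122 and 109.7 RPKM at E7.75. Both E9.5 libraries lay below every E7.75 library, and the log2 fold change was -1.12 ± 0.36 (limma adjusted p = 0.031). Bcl2l11 had 9.78 and 3.86 RPKM at E9.5, against 12.5, 10.1 and 10.9 RPKM at E7.75, and did not pass (-0.74 ± 0.36, limma adjusted p = 0.15). Bcl2 (0.87, adjusted p = 0.077), Bak1 (-0.26), Bcl2l1 (0.12) and Bax (0.04) did not pass either.

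These E9.5 values rest on replicates that differed widely for 5 members. Replicate 2 minus replicate 1 was -1.16 for Pmaip1, -1.15 for Bcl2l11, 1.05 for Bcl2, 1.02 for Bak1 and 0.99 for Bid on the log2 scale, where the median absolute difference was 0.39 over genes of at least 5 RPKM and 9.63% to 13.3% of those genes differed as much. For Bcl2l1, Bax and Bad the difference was 0.28 to 0.33 in size. The Pmaip1 call was lost without E9.5 replicate 2 (-0.55, adjusted p = 0.36), without any 1 of the E7.75 libraries (adjusted p = 0.056 to 0.077) and with all genes kept in the test (adjusted p = 0.059). Bcl2l11 passed after quantile normalization (-1.07, limma adjusted p = 0.048), and its value without E9.5 replicate 1 was -1.32. Bcl2 entered the test only through E9.5 replicate 2 and E12.5 replicate 2, so its test at this step carries no weight. Its value was 1.39 without E9.5 replicate 1 and 1.09 without E7.75 male replicate 1. With the 5 compared libraries alone, Bid (adjusted p = 0.0697) and Pmaip1 (adjusted p = 0.13) were not called. The allantois, mesenchyme and endothelium markers given above moved with this step, and their part in it was not tested.

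At E10.5, compared with E9.5, the sensors parted further: Bid was higher again, Bcl2l11 and Pmaip1 were lower, at the lowest group means of the series, and Bax was higher. This made 4 of 8 members, where 29.9% of genes tested passed and the median change of all genes was -0.16 on the log2 scale. Bcl2l11 had 0.94 and 0.40 RPKM at E10.5, against 9.78 and 3.86 RPKM at E9.5 (log2 fold change -2.14 ± 0.40, limma adjusted p = 0.0012), a mean level 10.2-fold lower. Pmaip1 had 6.05 and 19.7 RPKM at E10.5, against 76.7 and 33.8 RPKM at E9.5 (-2.11 ± 0.39, limma adjusted p = 0.0012), a mean level 4.29-fold lower. Neither gene's groups overlapped, although for Pmaip1 replicate 2 of E10.5 was 1.56 above replicate 1 on the log2 scale, a gap reached by 4.94% of genes of at least 5 RPKM.

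Bid had 112 and 144 RPKM at E10.5, against 40.4 and 81.1 RPKM at E9.5, a mean level 2.11-fold higher (log2 fold change 1.135 ± 0.29, limma adjusted p = 0.0093). Bax, the main effector by level, had 379 and 309.7 RPKM at E10.5, against 253 and 201 RPKM at E9.5 (0.60 ± 0.14, limma adjusted p = 0.006). Bcl2 had 0.15 and 0 RPKM at E10.5, against 0.48 and 2.06 RPKM at E9.5, and did not pass (-0.99, limma adjusted p = 0.064). It was tested only because E9.5 replicate 2 and E12.5 replicate 2 reached 1 RPKM, so its test here carries no weight. Without E9.5 replicate 1 its value was -1.51. Bak1 (-0.01), Bad (0.05) and Bcl2l1 (0.19) did not pass.

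The Bid call at this step was lost without E9.5 replicate 1 (0.64, adjusted p = 0.11), without E10.5 replicate 2 (0.95, adjusted p = 0.066) and with library weights (adjusted p = 0.068). The Bax call was lost after quantile normalization (0.12, adjusted p = 0.42), without E9.5 replicate 2 (0.44, adjusted p = 0.06) and without E10.5 replicate 1 (0.46, adjusted p = 0.065), and with the 4 compared libraries alone all 4 member calls were lost (adjusted p = 0.18 to 0.27). At E10.5 mesenchyme markers summed to 1.21 to 5.87 RPKM and endothelium markers to 1.19 to 3.54 RPKM, far below the E9.5 sums given above. Gut epithelium markers summed to 140.4 to 149 RPKM at E10.5 (5 to 6 of 8 at or above 1 RPKM), against 528 to 682 RPKM at E9.5 (6 of 8), and 4 of the 7 tested were called lower. The same list summed to 595 to 684 RPKM in E7.75 epiblast, so its high sum is not particular to E9.5. The part of all these markers in the changes of this step was not tested.

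**Figure D2:**
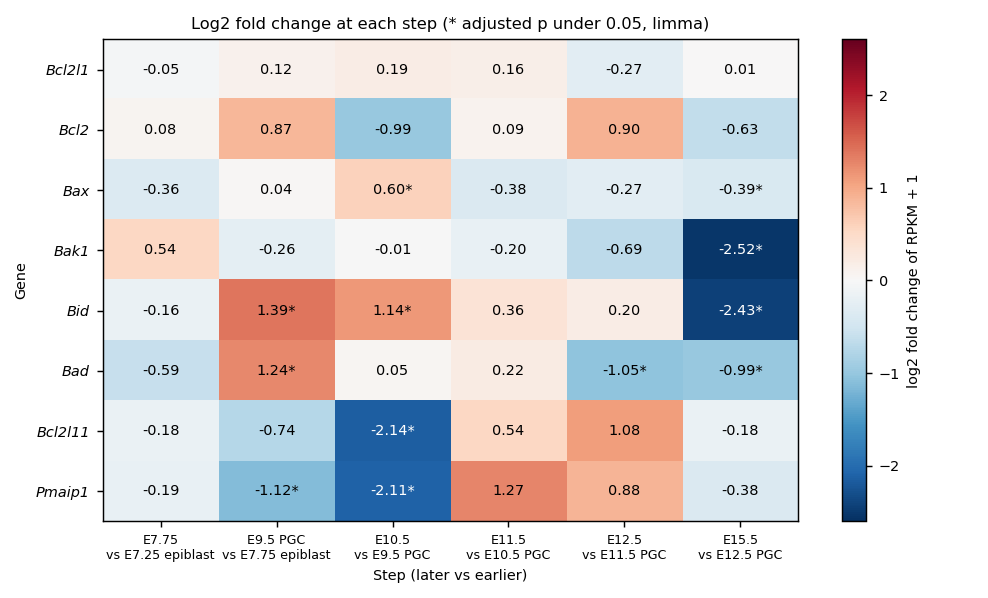
Log2 fold change of RPKM + 1 (colour and number) of the 8 members (y axis) at each of the 6 steps from E7.25 epiblast to E15.5 PGC (x axis, later against earlier, sexes of E15.5 averaged), with an asterisk where the limma adjusted p is under 0.05. Pmaip1 and Bcl2l11 stand at -2.11 and -2.14 at E10.5 against E9.5, where Bid stands at 1.135, and Bak1 and Bid at -2.52 and -2.43 at E15.5 against E12.5.

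From E10.5 to E12.5 few members passed. At E11.5 against E10.5 no member passed the limma test, where 7.19% of genes tested did (3.59% higher and 3.61% lower). An unadjusted limma p under 0.05 was found for 2 of 8 members, Pmaip1 and Bax, and for 3266 of the 14865 genes tested. The count of members is thus close to the background. Pmaip1 had 28.0 and 28.4 RPKM at E11.5, against 6.05 and 19.7 RPKM at E10.5 (log2 fold change 1.27 ± 0.39, limma adjusted p = 0.067), and it passed when E10.5 replicate 2 was left out (2.05, adjusted p = 0.0042) or either E9.5 library (adjusted p = 0.036 and 0.037). Bax had 270.2 and 256 RPKM at E11.5, against 379 and 309.7 RPKM at E10.5 (-0.38 ± 0.14, limma adjusted p = 0.13).

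At E12.5 against E11.5, Bad was lower, the only member to pass where 7.21% of genes tested did (4.12% higher and 3.09% lower). It had 22.4 and 24.5 RPKM at E12.5, against 54.2 and 45.5 RPKM at E11.5, without overlap (log2 fold change -1.05 ± 0.28, limma adjusted p = 0.035). The call was lost when any 1 of these 4 libraries was left out (adjusted p = 0.087 to 0.20) and with these 4 alone (adjusted p = 0.072). Bcl2l11 had 3.57 and 4.64 RPKM at E12.5, against 1.30 and 1.50 RPKM at E11.5 (1.08 ± 0.40, limma adjusted p = 0.13), and Pmaip1 had 51.1 and 54.5 RPKM at E12.5, against 28.0 and 28.4 RPKM at E11.5 (0.88 ± 0.39, limma adjusted p = 0.22). Neither overlapped between the ages, and both passed with library weights (adjusted p = 0.035 and 0.036). Bcl2 had 0.53 and 1.94 RPKM at E12.5, against 0.14 in both libraries at E11.5 (0.90, limma adjusted p = 0.19). It entered the tests only through E9.5 replicate 2 and E12.5 replicate 2, so its test at this step carries no weight.

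At E15.5, with both sexes averaged, 4 of 8 members were lower than at E12.5 and none was higher, where 8.27% of genes tested were lower, 6.81% were higher and 15.1% passed in either direction. They were the sensors Bid and Bad and both effectors, although Bax passed only at the threshold and its male libraries lay above E12.5. The median change of the 8 members was -0.51, that of all genes tested 0.00 on the log2 scale. Bak1 had 0.21 and 0 RPKM in female and 1.28 and 1.19 RPKM in male E15.5 PGC, against 8.26 and 7.79 RPKM at E12.5, a mean level 11.9-fold lower (log2 fold change -2.52 ± 0.31, limma adjusted p = 0.00012). Bid had 25.6 and 25.9 RPKM in female and 43.5 and 46.3 RPKM in male E15.5 PGC, against 187 and 188 RPKM at E12.5, a mean level 5.31-fold lower (-2.43 ± 0.25, limma adjusted p = 2.9e-05). For both genes all 4 E15.5 libraries lay far below both E12.5 libraries, and no alternative run in processing or in the choice of libraries changed these calls (adjusted p up to 0.0083).

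Bad had 10.2 and 6.31 RPKM in female and 17.4 and 14.1 RPKM in male E15.5 PGC, against 22.4 and 24.5 RPKM at E12.5 (log2 fold change -0.99 ± 0.24, limma adjusted p = 0.013), a call lost without either E12.5 library (adjusted p = 0.072 and 0.12) or with the 6 compared libraries alone (adjusted p = 0.067). The fall of Bax (-0.39 ± 0.12, limma adjusted p = 0.048) stood at the threshold: its E15.5 libraries had 96.0 and 129 RPKM in females and 249 and 246 RPKM in males, against 219 and 217 RPKM at E12.5, so that females lay below E12.5 and males above. The Bax call was lost without 13 of the 18 libraries, each left out alone (adjusted p up to 0.21), and in 5 of 8 other alternatives, among them the fit with the replicate number as a block (adjusted p = 0.06). Pmaip1 (-0.38), Bcl2l11 (-0.18), Bcl2 (-0.63) and Bcl2l1 (0.01) did not pass. For Bcl2, which entered the tests only through E9.5 replicate 2 and E12.5 replicate 2, this result carries no weight. For Pmaip1 the average of the sexes spans 12.9 and 16.9 RPKM in females and 108 and 106 RPKM in males. These lie on either side of the 51.1 and 54.5 RPKM of E12.5. The sexes were not tested against E12.5 apart. Blood markers, whose sum was high in E12.5 replicate 1 alone through Hbz and Hba1, summed to 0.34 to 1.28 RPKM at E15.5. Their part in these changes was not tested. Replicate 2 minus replicate 1 of E12.5 was -0.08 for Bak1, 0.0042 for Bid, 0.13 for Bad and -0.02 for Bax on the log2 scale.

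Tested for any difference among the 6 PGC groups, 6 of 8 members passed (limma F test), where 55.6% of genes tested did. The adjusted p was 2.3e-06 for Bak1, 1.3e-05 for Bid, 1.7e-05 for Bax, 3.2e-05 for Bad, 0.00011 for Pmaip1 and 0.0033 for Bcl2l11, against 0.065 for Bcl2 and 0.78 for Bcl2l1. Bcl2l11 no longer passed without the E10.5 and E11.5 libraries (adjusted p = 0.27) or after quantile normalization (adjusted p = 0.053). Bcl2 entered this test only through E9.5 replicate 2 and E12.5 replicate 2, so its result carries no weight. Bcl2l1 was also the member whose group means spanned least.

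Sex was compared at E15.5, the only PGC age whose libraries carried a sex label. Pmaip1 and Bax were lower in female PGC, 2 of 8 members where 8.16% of genes tested passed and 4.50% were lower. Female libraries also lay below male ones for Bak1, Bid and Bad, which did not pass, and how many of all genes separate this way was not counted. Pmaip1 had 12.9 and 16.9 RPKM in females, against 108 and 106 RPKM in males, a mean level 7.18-fold lower (log2 fold change -2.77 ± 0.43, limma adjusted p = 0.0023). Bax had 96.0 and 129 RPKM in females, against 249 and 246 RPKM in males, a mean level 2.204-fold lower (-1.15 ± 0.16, limma adjusted p = 0.0012). The female and male libraries of both genes were well apart.

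The other sensors and Bak1 gave smaller differences. Bak1 had 0.21 and 0 RPKM in females, against 1.28 and 1.19 RPKM in males (log2 fold change -1.02 ± 0.35, limma adjusted p = 0.095), and since both groups lie near 0 this value depends on the 1 RPKM added: with 0.1 added it was -2.93 (adjusted p = 0.0063). Bid had 25.6 and 25.9 RPKM in females, against 43.5 and 46.3 RPKM in males (-0.78 ± 0.27, limma adjusted p = 0.11). Bad had 10.2 and 6.31 RPKM in females, against 17.4 and 14.1 RPKM in males (-0.88 ± 0.28, limma adjusted p = 0.082). For these 3 genes the sexes did not overlap, but such separation is common by chance with so few libraries in each sex. Bid and Bad passed with library weights (limma adjusted p = 0.048 and 0.043). Calls of these 3 genes also moved in fits that left 1 library in a PGC group of another age.

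Bcl2l11 had 5.63 and 3.32 RPKM in females, against 2.13 and 3.51 RPKM in males (log2 fold change 0.51, limma adjusted p = 0.54), with overlap. Bcl2 had 0.83 and 0.63 RPKM in females, against 0 and 0.17 RPKM in males (0.67, limma adjusted p = 0.37). Bcl2l1 had 15.2 and 14.2 RPKM in females, against 12.2 and 17.7 RPKM in males, and its log2 fold change of 0.00 had a 95% interval from -0.55 to 0.54 (limma adjusted p = 1). With the 4 E15.5 libraries alone the Pmaip1 and Bax calls were lost (adjusted p = 0.072 and 0.11). Markers of the somatic gonad summed to 17.8 and 36.5 RPKM in females (2 and 4 of 9 at or above 1 RPKM), against 34.8 and 37.0 RPKM in males (5 and 6 of 9). Lhx9 made up most of these sums, with 15.1 and 29.5 RPKM in females, against 19.5 and 23.9 RPKM in males. Foxl2 was at 0 in all 4 libraries, and Amh was at 0 in females and had 3.20 and 1.02 RPKM in males. Mesenchyme markers summed to 7.67 and 5.75 RPKM in females (3 and 1 of 8 at or above 1 RPKM), against 19.2 and 23.8 RPKM in males (1 and 3 of 8), with Col1a2 and Prrx1 at 0 in all 4 libraries. Most of this came from Prrx2, with 4.58 and 5.16 RPKM in females, against 18.6 and 20.1 RPKM in males. Epiblast markers summed to 395 and 470.1 RPKM in females (3 and 4 of 8), against 1185 and 1002 RPKM in males (4 and 3 of 8), mostly through Utf1, and Fgf5 was at 0 in all 4. The part of these markers in the sex differences was not tested.

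In epiblast no member differed between the sexes by the limma test, where 0.0605% of genes tested passed (0.0135% higher and 0.0471% lower). No member had an unadjusted limma p under 0.05, which 686 of the 14865 genes tested had. Pmaip1 had 133 and 109.7 RPKM in the 2 female libraries, against 129, 123, 106 and 122 RPKM in the 4 male ones, and Bax had 281 and 227 RPKM in females, against 275, 293, 222 and 210.3 RPKM in males, so both overlapped. Their log2 fold changes were 0.01 with a 95% interval from -0.84 to 0.86 and 0.03 with one from -0.28 to 0.34. The sex difference itself was then tested between E15.5 PGC and epiblast, where 2.91% of genes tested passed (1.22% higher and 1.70% lower). Pmaip1 (-2.78 ± 0.56, limma adjusted p = 0.023) and Bax (-1.18 ± 0.21, limma adjusted p = 0.011) passed and the other 6 members did not. The Bax call held in every alternative tried (adjusted p up to 0.049). That of Pmaip1 was lost when any 1 of 8 libraries was left out (adjusted p = 0.0503 to 0.088): all 4 of E15.5, both female epiblast libraries, E7.25 male replicate 1 and E7.75 male replicate 1. Bak1 (-1.47, limma adjusted p = 0.12) passed without either E9.5 library (adjusted p = 0.048 and 0.049) and with 0.1 added (-3.40, adjusted p = 0.025).

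**Figure D3:**
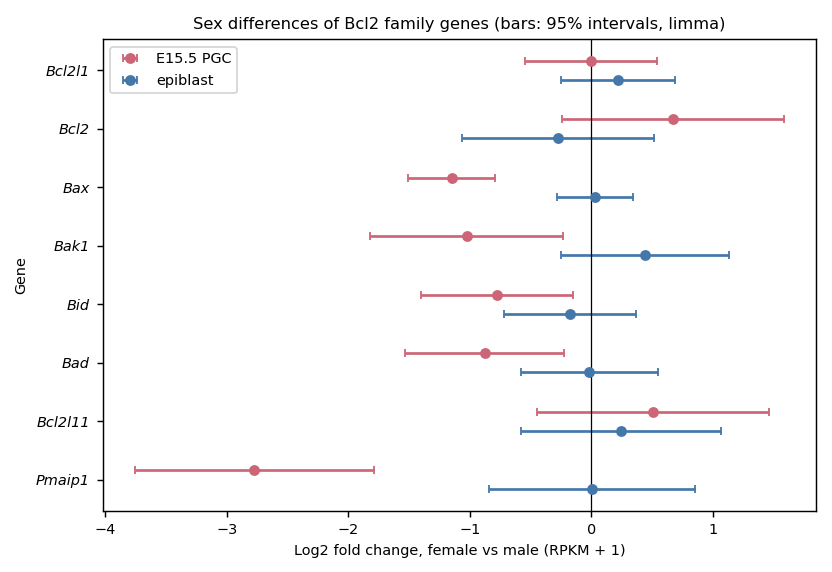
Log2 fold change of RPKM + 1, female against male (x axis), of the 8 members (y axis) in E15.5 PGC (red) and in epiblast (blue). Points are limma estimates, bars are 95% intervals (limma SE with the residual degrees of freedom of the fit), and the line marks no difference. Pmaip1 stands at -2.77 and Bax at -1.15 in E15.5 PGC, and both lie near 0 in epiblast.

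Because each library measures all members together, the balance between them can be read within a library, free of its scaling. Bid stood below Pmaip1 in every epiblast library, with ratios of 0.13 to 0.26. The ratio was 0.53 in replicate 1 and 2.40 in replicate 2 of E9.5, 18.5 and 7.32 at E10.5, 6.56 and 5.14 at E11.5, 3.66 and 3.45 at E12.5, 1.99 and 1.53 in female E15.5 PGC and 0.40 and 0.44 in male E15.5 PGC. From E10.5 on, Bid thus exceeded Pmaip1 in all PGC libraries but the male ones of E15.5, and the 2 E9.5 libraries fell on either side of 1.

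The effectors gave another pattern. Bax exceeded Bak1 by 8.77 to 34.0 times in all epiblast libraries and all PGC libraries up to E12.5. At E15.5 the ratio was 457 in female replicate 1, while female replicate 2 listed Bak1 at 0 and gives no ratio, and it was 194 and 206 in the males. Bax exceeded Bcl2l1 by 6.33 and 9.03 times in female E15.5 PGC, against 20.4 and 13.9 times in male E15.5 PGC, and by 13.1 to 26.8 times in all other libraries. The female E15.5 libraries thus had the lowest Bax to Bcl2l1 ratio of the series. These ratios are descriptions of RNA levels, without a test.

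**Figure D4:**
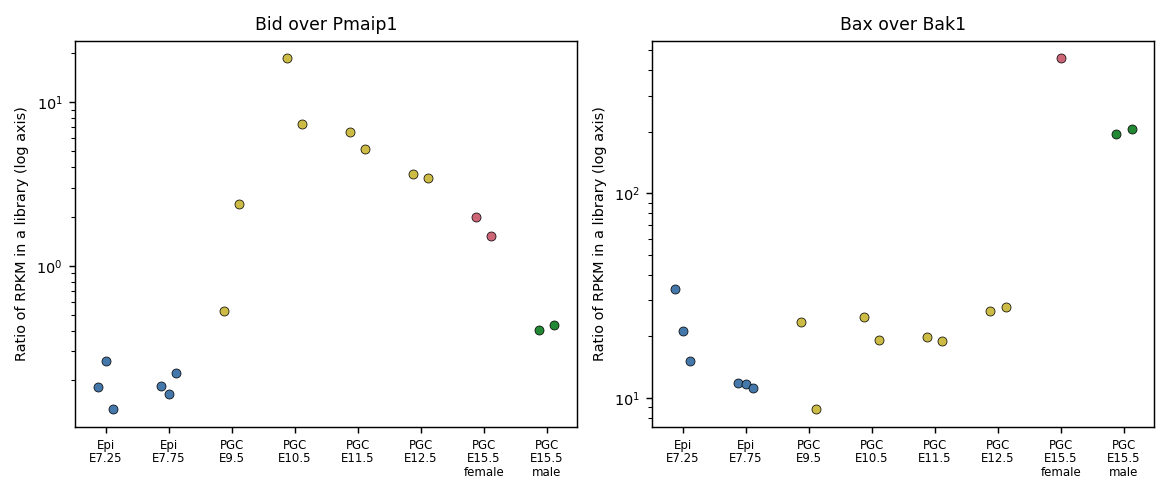
Ratio of RPKM of Bid over Pmaip1 (left) and of Bax over Bak1 (right) in every library, on a logarithmic y axis, with the groups on the x axis from E7.25 epiblast to E15.5 PGC, females left of males. Points are libraries, coloured blue for epiblast, yellow for PGC of unlabelled sex, red for female and green for male E15.5 PGC. Bid over Pmaip1 is at 0.13 to 0.26 in epiblast and at 7.32 and 18.5 at E10.5. Female replicate 2 of E15.5 has no Bax over Bak1 ratio, since Bak1 was listed at 0.

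Other genes of the death pathway gave a context for the members. Of 15 further Bcl2 family genes, 10 could be tested, and in PGC against epiblast 3 were higher and 2 lower, where 56.3% of all genes tested passed. Bmf, a BH3-only gene, had 7.66 ± 3.52 RPKM in PGC (SD, n = 12) and 0.94 ± 0.99 RPKM in epiblast (SD, n = 6; log2 fold change 2.09 ± 0.30, limma adjusted p = 3.8e-05). Bik, another BH3-only gene, had 24.6 ± 10.9 RPKM in PGC and 5.59 ± 1.34 RPKM in epiblast (1.71 ± 0.19, limma adjusted p = 2.9e-06). The 2 lower genes were Bnip3 and Bok. Bnip3, a gene induced by low oxygen that also acts in removal of mitochondria, had 12.3 ± 11.7 RPKM in PGC and 94.6 ± 29.1 RPKM in epiblast (-3.09 ± 0.33, limma adjusted p = 2.5e-06). Bok, which encodes an effector-like protein, had 31.5 ± 23.5 RPKM in PGC and 73.3 ± 16.3 RPKM in epiblast (-1.57 ± 0.11, limma adjusted p = 3.4e-08). Between the sexes at E15.5, 1 of these 10 genes passed, near the 8.16% of all genes tested that did (4.50% lower). It was Bok, with 7.78 ± 2.73 RPKM in females and 72.6 ± 4.64 RPKM in males (SD, n = 2 each; -3.10 ± 0.22, limma adjusted p = 1.5e-05).

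Of 25 tested lines for caspases and their regulators, 2 of them for Cycs, 7 were higher and 9 lower in PGC against epiblast. This is near the 56.3% of all genes tested that passed there (30.7% higher and 25.6% lower). Birc2, an inhibitor of apoptosis, was higher (1.66 ± 0.17, limma adjusted p = 1.5e-06), and Vdac1 and Vdac2, channels of the outer mitochondrial membrane, were lower (-1.33 ± 0.09 and -0.98 ± 0.10). At E15.5, 3 genes of this list were higher and 2 lower in females than in males, where 3.66% of all genes tested were higher and 4.50% lower. Aifm1, which encodes a mitochondrial death factor, had 244 ± 12.2 RPKM in females and 88.0 ± 0.65 RPKM in males (1.46 ± 0.15, limma adjusted p = 0.00021), and Diablo, an antagonist of the inhibitors, had 90.4 ± 2.46 RPKM in females and 48.4 ± 5.59 RPKM in males (0.89 ± 0.16, limma adjusted p = 0.0049). Vdac1 was lower in females, with 9.24 ± 0.27 RPKM against 44.4 ± 5.72 RPKM in males (-2.14 ± 0.20, limma adjusted p = 7.6e-05).

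Of 21 genes for germ cell survival signals and the PI3K, AKT and FOXO route that restrains BAD and BIM, 7 were higher and 4 lower in PGC against epiblast, where 56.3% of all genes tested passed. Nanos3 (5.69 ± 0.26, limma adjusted p = 3.5e-10) and Kit (3.73 ± 0.26, limma adjusted p = 2.6e-08), both needed for PGC survival in mouse, were higher, and both also mark the germ cells themselves. Foxo3, whose protein can induce Bcl2l11, was higher in female than in male E15.5 PGC, with 9.35 ± 0.11 RPKM and 2.04 ± 2.13 RPKM (1.97 ± 0.55, limma adjusted p = 0.049). Of 11 stress response genes, among them transcription factors that can induce BH3-only genes, 1 was higher and 4 lower at E10.5 against E9.5, where 11.5% of all genes tested were higher and 18.4% lower. Jun had 0.62 ± 0.88 RPKM at E10.5 and 36.3 ± 2.61 RPKM at E9.5 (-4.64 ± 0.57, limma adjusted p = 5.6e-05). Atf3 was listed at 0 in both E10.5 libraries, which were shallow, and had 7.30 ± 3.55 RPKM at E9.5. The part of read depth, and of the mesoderm, mesenchyme and endothelium markers seen at E9.5, in these falls was not tested. At E12.5 against E11.5, 4 of the 11 were higher, where 4.12% of all genes tested were higher. Among them were Fos with 503 ± 30.8 RPKM at E12.5 and 100.4 ± 13.7 RPKM at E11.5 (2.32 ± 0.46, limma adjusted p = 0.0086) and Atf4 with 276 ± 33.6 RPKM at E12.5 and 131 ± 38.2 RPKM at E11.5 (1.09 ± 0.23, limma adjusted p = 0.012).

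For each member whose group means spanned at least 2 on the log2 scale, the 3 genes with the most alike pattern were found over the 18 libraries, by the root mean square difference of centred log2 values. They were Acads (0.36), Slfn2 (0.40) and Prmt8 (0.42) for Bid, and Hexa (0.37), Ubald2 (0.39) and Marcksl1 (0.43) for Bad. For Bcl2l11 they were Ppip5k2 (0.37), Actr2 (0.46) and Prkcb (0.47), and for Pmaip1 they were RGD1311892 (0.47), Abat (0.67) and Fgr (0.68). For Bak1 they were LOC102551071 and Pltp (both 0.48) and LOC100910474 (0.50). No member was among the 3 most alike genes of another member.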

How the data were processed

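Per the labels' protocols, the PicoPure kit served for RNA extraction and SMART-Seq v4 Ultra Low Input for the libraries. Values were deposited as RPKM per gene, 1 column per library, and the authors made them with bcl2fastq 2.18.0.12, cutadapt 1.14, TopHat2 2.1.0 and Cufflinks 2.2.1 on build rn6, per the submitters' processing notes. No source used here gives the annotation release or the treatment of strand and of reads that map to several genes. No counts are given, so depth was compared only through the low RPKM values.

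Genes with at least 1 RPKM in at least 2 libraries, 14865 of 32545 lines, were tested as log2(RPKM + 1) with limma 3.58.1 (R 4.3.3; variance trend) in a fit of all 18 libraries. This scale understates the change of low genes. The fit had 8 groups (10 residual degrees of freedom), or, for comparisons of sex, 10 groups (8 residual degrees of freedom). Calls used an adjusted p under 0.05 (Benjamini-Hochberg over all genes tested). PGC against epiblast averaged 5 ages, with the sexes of E15.5 as 1 age, and 2 epiblast days. All members are named, and of each further list at most 2 genes in each direction per comparison, those with the largest change among genes that passed with at least 5 RPKM in the higher group. Some results of the further lists are not reported here. The members and lists were chosen with earlier results of these data known. Alternatives were a pseudocount of 0.1, other filters, quantile and upper quartile scaling, a replicate block, library weights, a fit of only the compared libraries and leaving out each library. Leaving out the E9.5 libraries, or those of E10.5 and E11.5, was chosen after seeing the data. Figures were drawn with matplotlib 3.10.9.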

Additional observations from a re-analysis of the deposited data

Results flagged for a closer look

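Among the 6 epiblast libraries, Bcl2 was highest in male replicate 1 of E7.75, with 0.5826 RPKM, while the other 5 libraries had at most 0.19 RPKM. The gap between this library and the next was larger than Dixon's 95% limit. Chance marks about 1 in 20 such groups, and 16 were examined.

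The difference between females and males at E15.5 was itself different from that in epiblast for 2 members. Pmaip1 differed by -2.783 on the log2 scale (limma, adjusted p = 0.023), with both female E15.5 libraries far below both male ones and the sexes overlapping in epiblast. Bax differed by -1.1776 (limma, adjusted p = 0.011), with the same arrangement of libraries.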

How the results depend on the processing

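Of 88 results on single members 27 were called, and 13 of these kept their call under all alternatives run, or 18 when the fit of only the compared libraries is set aside. None of the 27 changed sign, while 20 of the 61 not called did so somewhere. The replicate numbers did not pair the libraries (correlations of -0.13 to 0.06 over 15 pairs of PGC groups), and the replicate block changed 1 member call, Bax at E15.5 against E12.5 (adjusted p = 0.06). The cause of the following changes was not tested.

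With only the compared libraries, members called numbered 1 at E9.5 against E7.75, 0 at E10.5 against E9.5, 0 at E12.5 against E11.5, 2 at E15.5 against E12.5 and 0 between the sexes at E15.5. All genes called then numbered 9 at E7.75 against E7.25 (40 in the fit of all libraries), 2204 at E9.5 against E7.75 (4108), 0 at E10.5 against E9.5 (4443), 56 at E11.5 against E10.5 (1069), 0 at E12.5 against E11.5 (1072), 0 between the sexes at E15.5 (1213) and 150 between the sexes in epiblast (9). This fit has fewer residual degrees of freedom.

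With library weights, members called numbered 3 at E12.5 against E11.5 and 4 between the sexes at E15.5, and genes called numbered 146, 2228, 502 and 1999 at E7.75, E10.5, E11.5 and E12.5 against the stage before, and 668 for the sex difference between E15.5 PGC and epiblast (433 unweighted). Between the sexes in epiblast 16 genes passed with a pseudocount of 0.1, 220 without a filter, 5 with a filter at 5 RPKM and 5 with the replicate block, and for the sex difference 768 passed without a filter.

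With 1 library left out at a time, members called numbered 5 to 6 for PGC against epiblast, 0 to 0 at E7.75, 2 to 5 at E9.5, 3 to 5 at E10.5, 0 to 1 at E11.5, 0 to 1 at E12.5 and 2 to 4 at E15.5, each against the stage before, 2 to 4 between the sexes at E15.5, 0 to 0 in epiblast, 1 to 3 for the sex difference and 6 to 7 among PGC groups. Genes called numbered, in the same order, 7754 to 8441, 16 to 50, 3361 to 4376, 3475 to 4434, 353 to 1360, 251 to 1305, 908 to 2473, 486 to 1457, 4 to 29, 163 to 599 and 7492 to 8402. A group left with 1 library is assumed to vary like the others.

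Scaling moved the split of higher and lower genes. It was 2422 and 1686 at E9.5 against E7.75, 2028 and 2173 after quantile normalization and 1864 and 2338 after upper quartile scaling. At E10.5 against E9.5 it was 1711 and 2732, then 2068 and 1931 by quantiles and 2209 and 2118 by upper quartile, and the median change of all genes was -0.16, 0.03 and -0.01. At E11.5 against E10.5 it was 533 and 536, and 478 and 726 by upper quartile. At E12.5 against E11.5 it was 612 and 460, then 618 and 665 by quantiles and 403 and 598 by upper quartile. The shallow E10.5 and E11.5 libraries limit what can be said of Bcl2 and Bcl2l11, whose values there lay at or below 1.50 RPKM.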
